A study of Homo sapiens with 12 samples.

Results

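Basal and stress keratin genes of stratified and mammary epithelium, with the keratins of simple epithelium beside them (KRT5, KRT6A, KRT6B, KRT7, KRT8, KRT14, KRT15, KRT16, KRT17 and KRT18), were examined for sites at which an EGFR chimera was recovered with chromatin. These 10 genes were taken from the 20046 protein-coding genes of GENCODE 44 (GRCh38). Every ChIP-seq summit inside a gene, or within 1000 bp of either end of it, was assigned to that gene, and 34 of the 2186 summits were assigned to the keratin genes. The cells were B2B1, a single clone of MCF10A-5E, itself a clone of the established human breast epithelial line MCF10A. In all samples B2B1 expressed a GluGlu-tagged EGFR chimera together with an HA-tagged Erbb2 chimera, which the small molecule AP21967 (AP) brings together as heterodimers. Overlay cultures with Matrigel and EGF were kept for 6 days and then received 0.1% ethanol as vehicle (minus AP) or 0.5 µM AP (plus AP), in either case for the last 24 h of a 7-day culture. Chromatin was immunoprecipitated with an antibody to GluGlu from 2 replicates in each condition, which the labels call biological, and both conditions carried the same chimeras. Libraries of input chromatin and naive IgG were not used here, and the counts therefore have no control immunoprecipitate beside them. Summits report chromatin positions and not transcripts, and the epithelial identity of the cells therefore could not be checked from marker expression.

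Keratins are the intermediate filament proteins of epithelial cells. A filament is built from obligate pairs of one acidic type I and one basic type II keratin, and the genes of each type lie together in a cluster, on chromosome 17 for type I and on chromosome 12 for type II. KRT18 is the exception, a type I gene that adjoins its partner KRT8 at the edge of the type II cluster. KRT5 and KRT14 form the filament pair of basal epithelial cells, including the myoepithelial layer of the breast, and KRT15 is a further basal type I keratin. KRT8 and KRT18 pair in simple and luminal epithelium, where KRT7 is also made. KRT6A, KRT6B, KRT16 and KRT17 are induced in wounded or stressed epidermis. In a ChIP-seq experiment the DNA that is crosslinked to a tagged protein is sequenced, and a summit is the base of highest signal within a called peak.

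The DNA at 4 places of KRT5 where summits of different libraries lay near each other is given first, read from the GRCh38 reference in the direction of transcription, which is the minus strand. The capitals mark the bases called as summits. The first is the coding start of KRT5 in exon 1 (chr12:52520220-52520296), which begins with the start codon and held a summit of both replicate 1 libraries.
KRT5 exon 1: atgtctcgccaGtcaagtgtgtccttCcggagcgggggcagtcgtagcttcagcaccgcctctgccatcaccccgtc
Intron 1 of KRT5 (chr12:52519675-52519741) held a summit of the same 2 libraries, 38 bp apart.
KRT5 intron 1: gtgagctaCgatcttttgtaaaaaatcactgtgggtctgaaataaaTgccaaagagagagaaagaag
Intron 7 of KRT5 (chr12:52516070-52516228) held a summit of both replicate 2 libraries and of plus AP replicate 1.
KRT5 intron 7: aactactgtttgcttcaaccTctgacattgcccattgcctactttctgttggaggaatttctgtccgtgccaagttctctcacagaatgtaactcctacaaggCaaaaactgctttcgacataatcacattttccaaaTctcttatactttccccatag
The DNA just past the end of KRT5 (chr12:52514386-52514574) held a summit of each minus AP replicate. Summits of plus AP replicate 1 (chr12:52514603) and plus AP replicate 2 (chr12:52514252) lay close by, outside the printed stretch.
KRT5 past the end: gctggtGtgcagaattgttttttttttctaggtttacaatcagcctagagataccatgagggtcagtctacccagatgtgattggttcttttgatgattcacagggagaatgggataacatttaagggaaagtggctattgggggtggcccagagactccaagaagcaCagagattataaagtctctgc

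The libraries differed widely in the number of summits, with 739 and 56 in minus AP replicates 1 and 2 and 1094 and 297 in plus AP replicates 1 and 2. The replicate 1 lists also stood apart in their content. Only 69 of 739 and 101 of 1094 summits lay within 1000 bp of a protein-coding gene in replicate 1 without and with AP, as against 43 of 56 and 236 of 297 in replicate 2. Each score is the −log10 of a q-value, which depends on depth, and depth is unknown for these lists. For this reason scores were compared only within a library, as a rank in which 1 is the highest score. Summits tied at a score all take the best rank among them. Values are given for each library throughout.

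Of the 10 keratin genes, 4 had a summit in at least 1 library (KRT5, KRT14, KRT6A and KRT16), and KRT5 alone had one in all 4. Over all protein-coding genes, 1.31% had a summit in at least 1 library. KRT5 held 6 and 3 summits in the minus AP replicates and 8 and 6 in the plus AP replicates, 23 of the 34 keratin summits. The replicate 1 libraries placed 4 summits each in KRT14, without and with AP, whereas both replicate 2 libraries had none there. KRT6A had 1 summit in minus AP replicate 1 and 1 in plus AP replicate 2, and KRT16 had a single summit, in plus AP replicate 1. KRT6B, KRT7, KRT8, KRT15, KRT17 and KRT18 had no summit in any library. In the replicate 2 libraries alone, 2 of the 10 genes had a summit, KRT5 and KRT6A. Singly, these libraries had a summit in 0.16% (minus AP) and 1.13% (plus AP) of protein-coding genes, and their joint share was not counted. For summit calls, having none means that no peak passed the authors' threshold, and the depth at which one would have been called is unknown.

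**Figure D1:**
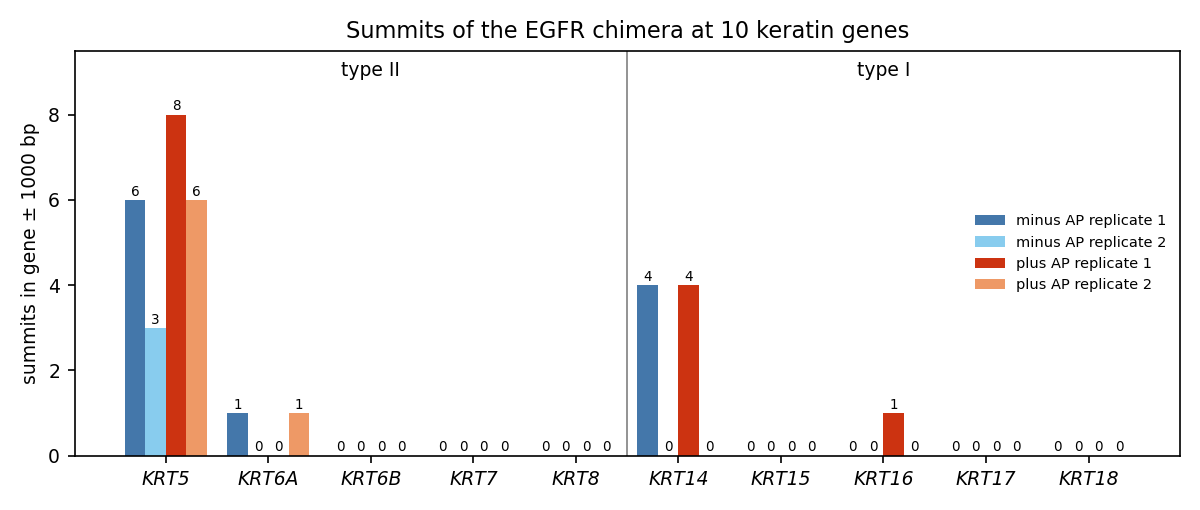
Number of summits within each keratin gene extended by 1000 bp (y axis) in each of the 4 GluGlu libraries (bars, 1 library each), with type II genes on the left and type I genes on the right. KRT5 held 3 to 8 summits in every library, KRT14 held 4 in both replicate 1 libraries and 0 in both replicate 2 libraries, and 6 genes held none.

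The number of keratin genes with a summit was 3 and 1 of 10 in the minus AP replicates and 3 and 2 of 10 in the plus AP replicates. Of all protein-coding genes, 0.175% and 0.16% had a summit in minus AP replicates 1 and 2, and 0.319% and 1.13% had one in plus AP replicates 1 and 2. The keratin genes were chosen with earlier results of these data known, so no test was made of their share against this background. A single keratin gene, KRT5, had a summit in both minus AP replicates, where 0.0898% of protein-coding genes did. KRT5 was again the only one with a summit in both plus AP replicates, as against 0.18% of protein-coding genes. Summits in all 4 libraries were found for 0.0798% of protein-coding genes, 16 in number, and KRT5 was one of them.

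KRT5 (ENSG00000186081.12, chr12:52514575-52520530, minus strand) encodes the type II keratin of basal cells and has 9 exons in its canonical transcript. By number of summits it stood near the head of each list. In minus AP replicate 1, its 6 summits were exceeded by 1 of 35 genes with a summit, CCDC200, and the same gene alone exceeded its 8 summits in plus AP replicate 1, among 64 genes. In minus AP replicate 2 its 3 summits were matched but not exceeded among 32 genes, by DDIT4, NFKBIA and TXNIP among others. In plus AP replicate 2 its 6 summits were matched only by RCC1 among 226 genes. The place of KRT5 therefore did not separate the libraries with AP from those without.

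KRT5 had a summit in exon 1 in all 4 libraries. Measured from the first base of the canonical transcript, it lay at 109 bp in minus AP replicate 1, 97 bp in minus AP replicate 2, 124 bp in plus AP replicate 1 and 81 bp in plus AP replicate 2. The 4 positions spanned 43 bp (chr12:52520270-52520313), with those of replicate 1 in the coding sequence printed above and those of replicate 2 in the 5′ untranslated part of the exon. In every library this summit had the highest keratin score, although it was tied with one past the end of the gene in minus AP replicate 1 and with one in intron 1 in plus AP replicate 2. Its score was 8.22 (rank 275 of 739) in minus AP replicate 1, 14.5 (rank 2 of 56) in minus AP replicate 2, 13.5 (rank 222 of 1094) in plus AP replicate 1 and 12.7 (rank 12 of 297) in plus AP replicate 2. In the ranking of all summits the exon 1 summit was thus nearer the top in replicate 2 than in replicate 1. When only summits within 1000 bp of protein-coding genes were ranked, it took rank 20 of 69 and 2 of 43 in the minus AP replicates and 11 of 101 and 7 of 236 in the plus AP replicates.

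**Figure D2:**
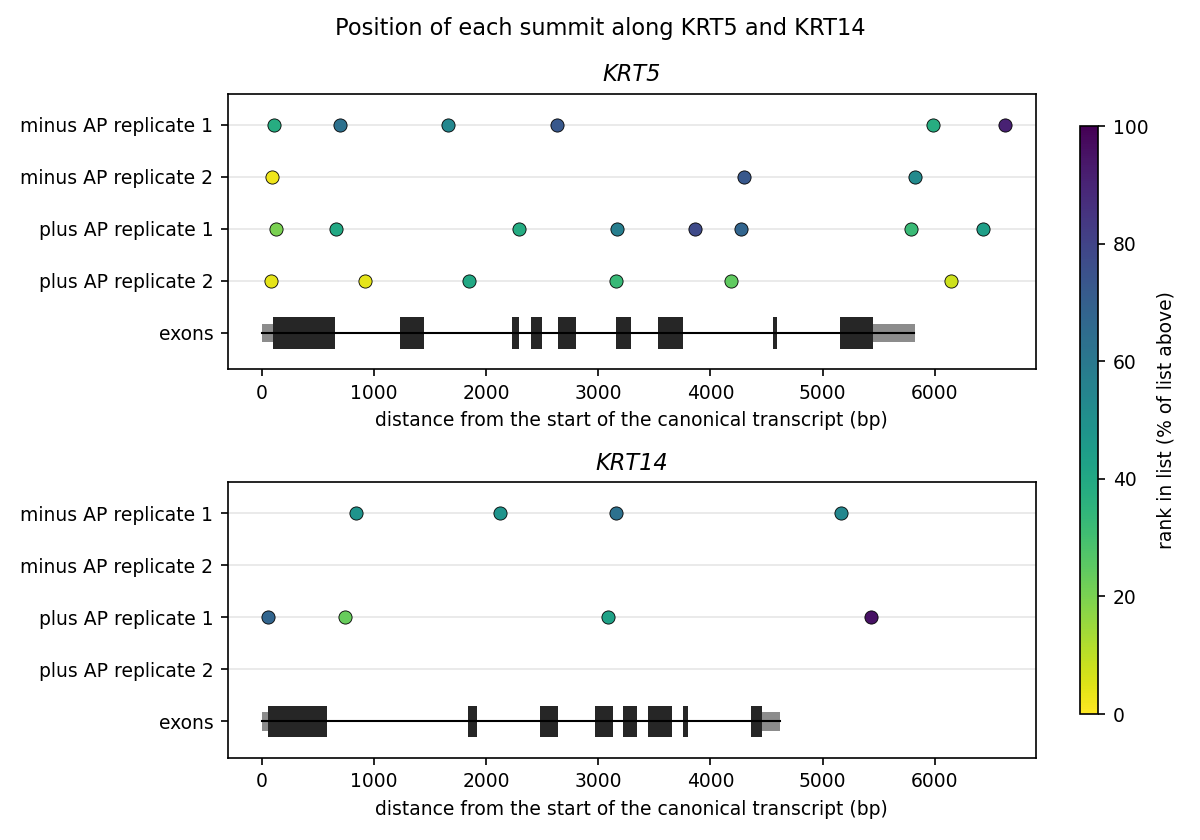
Each circle is 1 summit, placed by its distance (bp) from the canonical transcript start of KRT5 (top) or KRT14 (bottom) with 1 line for each library, and the colour gives the percentage of that library's list that scored higher. Coding exons are drawn as tall black boxes and untranslated parts as low grey boxes; a circle in exon 1 of KRT5 is found on all 4 lines, between 81 and 124 bp.

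Summits continued along the whole of KRT5 and past its end. They spanned 6519 and 5729 bp in the minus AP replicates and 6307 and 6061 bp in the plus AP replicates, in a gene of 5956 bp. Neighbouring summits of a library were separated by a median of 961 and 2864.5 bp without AP and 695 and 1031 bp with AP. Among the 23 summits, 7 lay in exons, 11 in introns and 5 past the end of the gene, and no summit lay upstream of it. Exons make up 38.5% of the canonical transcript.

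When KRT5 summits less than 300 bp from the next were joined, a distance chosen after the positions had been seen, 9 places resulted. Both ends of the gene were marked in all 4 libraries, the exon 1 place and a wider one of 837 bp (chr12:52513766-52514603) that runs from exon 9 to beyond the gene. The place at the end held 2 summits in each replicate 1 library and 1 in each replicate 2 library. Its highest-scoring summit had a score of 8.22 (rank 275) in minus AP replicate 1, 3.93 (rank 28) in minus AP replicate 2, 8.33 (rank 354) in plus AP replicate 1 and 10.5 (rank 22) in plus AP replicate 2. Relative to each list, the summit at the end of KRT5 was therefore above the middle in 3 libraries and close to the middle in minus AP replicate 2.

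Between the ends, the places were shared by fewer libraries. Intron 1 (chr12:52519471-52519733) held a summit in minus AP replicate 1 (score 4.51, rank 463), plus AP replicate 1 (6.76, rank 437) and plus AP replicate 2 (12.7, rank 12), and none in minus AP replicate 2. Intron 7 (chr12:52516090-52516208) held one in minus AP replicate 2 (3.07, rank 37), plus AP replicate 1 (3.67, rank 739) and plus AP replicate 2 (6.30, rank 67), and none in minus AP replicate 1. The remaining places came from plus AP libraries only, from a minus AP library only or from both, and whether they follow the AP treatment was not tested. A pair of summits 12 bp apart at exon 6 and intron 5 (chr12:52517227-52517239) came from the plus AP replicates (4.54, rank 627, and 5.32, rank 91). No summit of a minus AP library lay between these bases, and the nearest, in intron 4 of minus AP replicate 1, had a score of 3.68 (rank 535). Intron 2 (chr12:52518543-52518734) was shared by minus AP replicate 1 (5.39, rank 395) and plus AP replicate 2 (4.61, rank 119). The other 3 places held 1 summit each. Those at chr12:52516532 and chr12:52518103 came from plus AP replicate 1, and that at chr12:52517764 came from minus AP replicate 1. Counted by distance, 13 KRT5 summits lay within 1000 bp of a summit of each of the other 3 libraries, 8 did so within 500 bp and 5 within 250 bp.

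KRT14 (ENSG00000186847.6, chr17:41582279-41586895, minus strand) encodes the type I partner of KRT5 and has 8 exons. Its 8 summits all came from the replicate 1 libraries, 4 without and 4 with AP, and only CCDC200 and KRT5 held more summits in either list. In minus AP replicate 1 the summits lay in intron 1 (score 6.30, rank 353), intron 2 (6.30, rank 353), intron 4 (4.51, rank 463) and 546 bp past the end (5.39, rank 395). In plus AP replicate 1 they lay in exon 1 (3.67, rank 739), intron 1 (11.6, rank 255), exon 4 (6.39, rank 463) and 815 bp past the end (1.57, rank 1045). At 3 places the summits of these libraries lay near each other. The intron 1 summits were 97 bp apart, those at exon 4 and intron 4 were 72 bp apart and those past the end were 269 bp apart. The intron 1 summit of plus AP replicate 1 had the highest KRT14 score of its list, and in minus AP replicate 1 the intron 1 and intron 2 summits were tied for the highest.

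**Figure D3:**
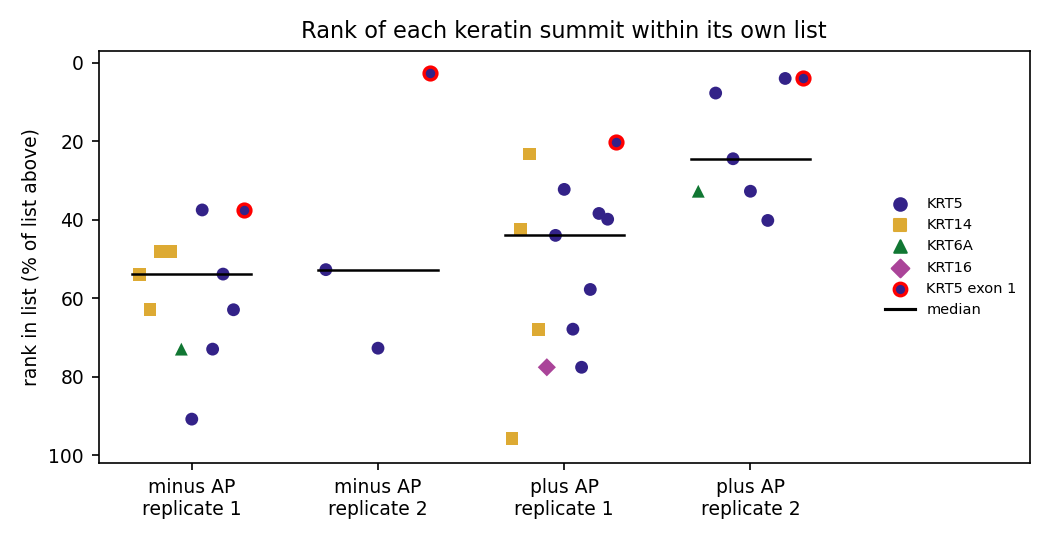
Each symbol is 1 keratin summit, placed by the percentage of its own list that scored higher (y axis, 0 at the top, ties averaged), for each of the 4 libraries (x axis), with symbols for the 4 genes and a black line at the median. The KRT5 exon 1 summits (red outline) were the highest keratin symbols, alone or tied, in all 4 libraries, and the medians were 53.9%, 52.7%, 44.0% and 24.5% from left to right.

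The stress keratins had few summits and these did not recur. In KRT6A (ENSG00000205420.11, chr12:52487176-52493257, minus strand), a type II keratin of wounded epidermis, the summit of minus AP replicate 1 lay in intron 1 (score 3.68, rank 535 of 739). That of plus AP replicate 2 lay in intron 6, 3312 bp away (5.32, rank 91 of 297). In KRT16 (ENSG00000186832.9, chr17:41609778-41615899, minus strand), a type I keratin of wounded epidermis, the summit of plus AP replicate 1 lay in coding exon 3 (2.86, rank 841 of 1094). These 3 were the keratin summits with no summit of another library within 1000 bp. KRT6B and KRT17, the other stress keratins of the 10 genes, had none, and neither had KRT6C, a stress keratin outside the 10.

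The distribution between the clusters followed KRT5 and KRT14. Type II genes held 7 and 3 summits in the minus AP replicates and 8 and 7 in the plus AP replicates, and type I genes held 4 and 0 without AP and 5 and 0 with AP. All summits were of type II genes in both replicate 2 libraries, and 63.6% and 61.5% were so in replicate 1 without and with AP. The entire type II cluster, 0.784 Mb with 27 keratin genes including KRT18 (chr12:52168996-52952906), held no summit outside the members. The type I cluster, 0.970 Mb with 28 keratin genes (chr17:40654665-41624842), held 6 summits in plus AP replicate 1, of which 5 were in members, and had no further summit outside them in the other libraries. The 44 other type I and type II keratin genes of these spans, counted without the keratin-like KRT222, had no summit within 1000 bp in any library. With 1.31% of protein-coding genes called in at least 1 library, none of 44 is close to that background. KRT8 and KRT18, the luminal pair, and KRT7 had none in either condition.

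Addition of AP was compared over the 4 libraries by exact permutation tests, two-sided, for 5 values chosen to describe the keratin genes. With 2 libraries in each condition the smallest p that such a test can give is 0.333, so no difference could pass 0.05. The share of a list that lay in keratin genes was 1.49% (95% Wilson interval 0.833 to 2.65%) and 5.36% (1.84 to 14.6%) in the minus AP replicates. It was 1.19% (0.696 to 2.02%) and 2.36% (1.15 to 4.78%) in the plus AP replicates. The conditions overlapped, with means of 3.42 ± 2.74% without and 1.77 ± 0.826% with AP (SD, n = 2, exact permutation p = 0.667, adjusted p = 1). These intervals cover counting error only and treat summits as independent. Per summit near a protein-coding gene the order was different, since keratin genes then took 15.9% and 6.98% without AP and 12.9% and 2.97% with AP, with replicate 1 above replicate 2 in both conditions.

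The number of keratin genes with a summit was 2 ± 1.41 without and 2.5 ± 0.707 with AP (SD, n = 2, exact permutation p = 1, adjusted p = 1). The median rank of the keratin summits, as the percentage of the list that scored higher, was 53.9% and 52.7% in the minus AP replicates and 44.0% and 24.5% in the plus AP replicates. The values of the conditions did not overlap, but they are percentages of lists that differ in length and in the part near protein-coding genes, as given above, so they are not read as a difference with AP. The difference of −19.0 percentage points (53.3 ± 0.802 and 34.3 ± 13.8, SD, n = 2) had the smallest p that the exact permutation test allows, 0.333, and an adjusted p of 1. Within replicates 1 and 2 it was −9.85 and −28.2 percentage points. Median position along the gene, from 0% at the start to 100% at the end, was 46.0% and 74.5% without AP and 66.9% and 55.3% with AP (exact permutation p = 1, adjusted p = 1, n = 2). The share of type II summits was 81.8 ± 25.7% without and 80.8 ± 27.2% with AP (SD, n = 2, exact permutation p = 1, adjusted p = 1). For 4 of the 5 values the replicates of a condition thus overlapped those of the other.

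Keratin genes have near copies among themselves and among pseudogenes, and only uniquely mapped reads had been kept. The reference was therefore searched for repeated 75-bp sequences. Only identical copies were counted, so a sequence whose copies all differ from it counts as single-copy here. Shares are for each gene with 1000 bp on each side, and those of the genes alone were not counted. KRT5, with 99.2% of its 75-bp sequences found once in GRCh38, was close to fully single-copy. So were KRT7 (99.6%), KRT15 (99.7%), KRT18 (99.5%) and KRT8 (98.3%), none of which had a summit. KRT14 (97.0%), KRT17 (96.2%) and KRT16 (95.4%) were somewhat lower, and KRT6A (89.7%) and KRT6B (83.8%) were the lowest of the members. Of the 34 keratin summits, 32 lay in windows of 250 bp on each side in which each 75-bp sequence occurred once. The exceptions were both in KRT14, the intron 2 summit of minus AP replicate 1 (96.5% single-copy) and the exon 1 summit of plus AP replicate 1 (86.2%, with up to 4 copies). The following 75 bases of coding exon 1 of KRT14 (chr17:41586755-41586829, minus strand), within the window of that summit, hold no summit and are shown because they occur 4 times on chromosome 17, the other copies lying in the pseudogenes KRT16P6, KRT16P4 and KRT16P5.
KRT14 exon 1, repeated: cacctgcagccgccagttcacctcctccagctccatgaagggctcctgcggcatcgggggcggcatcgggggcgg
The part of such repeated bases in the KRT14 counts was not tested.

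**Figure D4:**
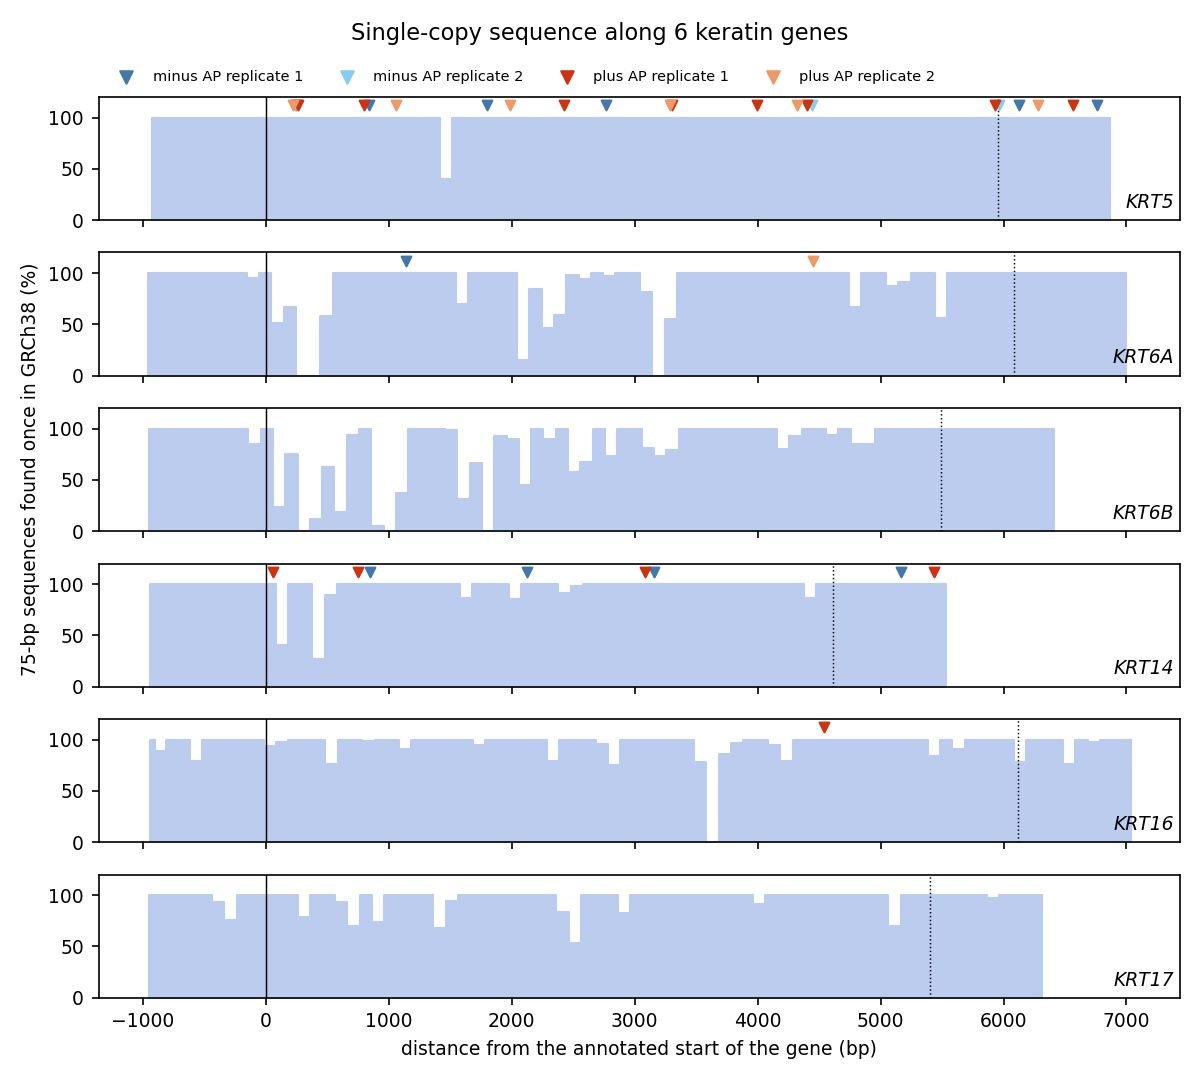
Percentage of 75-bp sequences found once in GRCh38 (y axis, in bins) along 6 keratin genes, by distance in bp from the annotated start of the gene (x axis), with triangles at the summits of the 4 libraries and a dotted line at the end of each gene. KRT5 is single-copy along nearly all of its length, whereas KRT6A, KRT6B and, in a single bin, KRT16 fall to 0%.

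Base composition and short motifs were described for windows of 250 bp on each side of a summit. The GC content of the KRT5 windows ran from 40.1 to 61.9% with a median of 46.9%, and that of the KRT14 windows from 47.5 to 62.3% with a median of 53.2%. The motif TGANTCA allows any middle base and is therefore wider than the AP-1 consensus TGA(C/G)TCA. It was found on either strand in 5 KRT5 windows and 1 KRT14 window, 6 of 34 in all. It was found in 6.86% of all 2186 windows and 7.71% of 35116 RefSeq promoters (GRCh38.p14, 300 bp each). A match, tgattca, stands in the stretch printed above from past the end, and its middle base, T, is outside the AP-1 consensus. Of the 5 KRT5 windows, 4 overlap at the end of the gene and came from 1 summit of each library. The keratin windows are therefore not independent of each other. Windows are also longer than the promoters, so a motif has more room in a window and these percentages are not directly comparable. Most of the 2186 windows come from the replicate 1 lists, where few summits lay near a protein-coding gene. TATAAA was found in 13 of 34 keratin windows and in 31.6% of all windows and 11.5% of promoters. GGGCGG was found in 3 keratin windows, none of them in KRT5, and in 15.6% of all windows and 45.0% of promoters. TNTTT or TTTNT, an A and T rich pattern, was found in every keratin window and in 95.6% of all windows and 84.0% of promoters. The promoter table held KRT5 and KRT8 of the members, and no summit fell upstream of KRT5.

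Genes with functions next to the keratins were examined from lists chosen with earlier results known, so their counts were not tested against the background. Among 10 genes for proteins that anchor or bind keratin filaments, 4 had a summit in at least 1 library, as against 1.31% of protein-coding genes, and none had one in all 4. SFN (stratifin), an adaptor protein of epithelial cells that binds keratins, had 1 summit in every library but plus AP replicate 2, which had none. DSP, the desmosomal linker of keratin filaments, had 1 in minus AP replicate 1 only, and PKP1 and DST, of desmosomes and hemidesmosomes, had 1 each in plus AP replicate 2 only. Of 8 genes for transcription factors that act on keratin genes, 2 had a summit in at least 1 library. KLF5 had 1 summit in each replicate 1 library and 2 in plus AP replicate 2, and TFAP2A had 1 in plus AP replicate 2. Among the keratins themselves, KRT5 and KRT14 accounted for 31 of the 34 summits, KRT6A and KRT16 for 3 and KRT7, KRT8 and KRT18 for none. The KRT14 summits came from the replicate 1 libraries only. Of 5 basal markers listed (KRT5, KRT14, KRT15, KRT17 and TP63), 2 had a summit in any library, and only KRT5 had one in all 4.

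Summit counts over the 4 libraries were compared between KRT5 and the 15 other protein-coding genes with a summit in all 4, by the sum of the absolute differences in counts, and TXNIP and NFKBIA were among the genes most like it. TXNIP, an inhibitor of thioredoxin, had 2 and 3 summits without and 3 and 5 with AP (sum 10). NFKBIA, the inhibitor of NF-κB, had 2 and 3 without and 3 and 4 with AP (sum 11). In minus AP replicate 2, the shortest list, KRT5 and these genes had 3 summits each, whereas KRT5 had more summits than each of them in the other libraries. DDIT4, HOOK2, JUNB and RCC1 came next with the same sum, 13. HOOK2 and JUNB had identical counts in each library, 2 and 2 without and 3 and 3 with AP. A summit was counted for every gene whose limits hold it. HOOK2 is annotated over 109738 bp and JUNB over 1830 bp. Whether HOOK2 and JUNB, or others of these genes, count the same summits was not checked. The identical counts are therefore not read as separate likenesses to KRT5.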

How the data were processed

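Summit lists of the 4 GluGlu libraries were used, assigned to condition and replicate by the sample labels. The authors aligned paired reads to GRCh38 with Bowtie2 (2.2.9 in the submitters' processing notes), discarded duplicates and reads without a unique position, and ran MACS2 (2.2.7.1) on each library, against input chromatin by the methods of the study, although its results speak of naive IgG as the comparison. The lists do not show which was used. The deposited score is the −log10 q-value of the authors, and each passed a q-value of 0.05. Depth is unknown.

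The keratin genes, the other gene lists and the measures were chosen with earlier results of these data known. Gene limits, exons and canonical transcripts came from GENCODE 44. Ranks averaged ties. Exact permutation tests over the 4 libraries were adjusted over 5 results by the Benjamini-Hochberg method, and p-values measure only the spread between these samples. All 75-bp sequences were counted on both strands of 194 reference contigs, without alternate haplotypes, by code tested on simulated data. Gene limits, minimum score, list length, merging within 500 bp, chromosomes, denominator, gene model and replicates were varied. Genes were named as members, as list genes with a summit, or as those most like KRT5 in counts, and genes that matched or exceeded KRT5 or KRT14 were named after their values were seen. Sequences were read from GRCh38, and 1 gene and 1 sequence are not reported here. Python 3.11.15, numpy 2.4.6, scipy 1.17.1, numba 0.67.0 and matplotlib 3.10.9 were used.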

Additional observations from a re-analysis of the deposited data

How the results depend on the processing

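With 2 libraries in each condition the exact permutation tests cannot pass 0.05, so the settings were compared by direction (plus AP less minus AP), leaving out 10 of 57 alternative values that equal the reported ones by construction. Of the other 47, 34 kept the direction, 11 changed it and 2 were 0, both for the number of keratin genes (among the 56 highest scores of each library, and without plus AP replicate 1). The type II share changed direction without extension of the genes (0.57 percentage points) and at scores of 2 or more (1.52). The median position did so at scores of 2 or more (−2.05), after merging within 500 bp (−2.05) and within canonical transcript limits (−5.26). Leaving out each library in turn gave −3.58 to 0.284 percentage points for the keratin share, −0.5 to 1.5 for the number of keratin genes, −28.8 to −9.29 for the median rank, −13.5 to 15.1 for the position and −20.3 to 18.2 for the type II share. The share was positive only without minus AP replicate 2, the list of 56 summits, and the median rank difference was negative in each of these. With summits near protein-coding genes as the denominator, the share differed by −3.54 percentage points. Among the 56 highest scores of each library the share differed by −0.136. Ties at the last score were kept, so these lists can be longer than 56. No rank, position or type II value could be had there because the replicate 1 libraries held no keratin summit. Counted with 1000 bp on each side, no member was under 80% single-copy, so that alternative removed none. Shares of the genes alone were not counted. KRT6B, the member with the lowest share, had no summit, so its removal would change none of these values. In settings added after the data had been seen, the KRT5 summits near all other libraries were 13 within 1000 bp, 8 within 500 bp and 5 within 250 bp. The replicate 2 libraries alone left 2 keratin genes with a summit, KRT5 and KRT6A, in place of 4. Singly, minus and plus AP replicate 2 had a summit in 0.16% and 1.13% of protein-coding genes.

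With a replicate block, the mean differences are by construction those without it, and 2 pairs cannot give an exact permutation p below 0.5. Within replicates 1 and 2 the keratin share differed by −0.300 and −3.0 percentage points (mean −1.65), the number of genes by 0 and 1 (mean 0.5), the median rank by −9.85 and −28.2 (mean −19.0), the position by 20.9 and −19.3 (mean 0.805) and the type II share by −2.10 and 0 (mean −1.05). Deviations of same-numbered libraries from their condition were correlated across genes, although the labels do not state that a number marks a shared culture. Pearson's r was 0.853 over the 10 keratin genes and 0.744 over 262 protein-coding genes with a summit. Only 4 of the 10 keratin genes had a summit in any library, and the others add deviations of 0. The r over the 10 keratin genes therefore rests mainly on KRT14 and KRT5.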
